A study of Mus musculus with 20 samples.

Results

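The late chow arm of this mouse atherosclerosis series comprised the 3 arrays from mice at week 30 and the 3 arrays from mice at week 18 on chow, chosen by their titles, and they were 6 of the 20 arrays in all. Each array measured mature microRNAs (miRNAs) in 1 colour (Cy3) on an Agilent mouse miRNA design. Both groups were male mice with the genotype given as Apobtm2Sgy/Ldltm1Her, a double knockout that also every other group of the series carried. The tissue of both groups was labelled as ascending aorta bearing an atherosclerotic lesion, and the diet as chow. The weeks were given both as time on diet and as age, 18W and 30W. The series set chow against a high fat diet at weeks 6, 18 and 30, with chow alone at week 0, so the late chow step asks what changed without the high fat diet between the last pair of time points. Nothing in the labels says that replicates came from separate animals, so each p-value below reflects only how much these samples vary, and that variation may be technical. Because the tissue was taken whole, fewer cells of a type and less RNA per cell cannot be told apart in any level below.

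A miRNA is a short RNA that guides a silencing complex to messenger RNAs, mainly through its seed, the bases 2 to 8 from its 5′ end, and lowers their output. Family members share a seed and are known to share many targets. In the artery wall, miR-143 and miR-145 are known as markers of contractile smooth muscle, miR-126 as a marker of endothelium, miR-29 as a repressor of collagen and elastin messages, and miR-21 as a miRNA induced by vessel injury. The let-7 family is abundant in most differentiated tissues.

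Sequences of the miRNAs on which the late chow profile turned were taken from RefSeq (GRCm38.p6), which held 496 of the 609 tested miRNAs. The first set is the let-7 family, whose members shown were well above background on all 6 arrays but differed in how evenly they were measured. The capitals mark the seed, which all 7 share.
let-7a-5p: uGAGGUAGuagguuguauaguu
let-7b-5p: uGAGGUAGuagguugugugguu
let-7c-5p: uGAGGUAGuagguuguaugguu
let-7d-5p: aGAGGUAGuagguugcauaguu
let-7e-5p: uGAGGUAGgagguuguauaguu
let-7f-5p: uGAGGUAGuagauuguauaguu
miR-98-5p: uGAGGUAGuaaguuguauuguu
The sequences of let-7a-5p and let-7f-5p differ at 1 of 22 letters, and those of let-7b-5p and let-7d-5p at 4, so hybridisation to one another's probes is possible.

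The next set holds examples of miRNAs whose difference between the weeks was bounded, with a 95% interval within 2-fold either way, and the seed is in capitals. miR-103-3p and miR-107-3p share a seed and differ at 1 of 23 letters.
miR-29a-3p: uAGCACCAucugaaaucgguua
miR-23a-3p: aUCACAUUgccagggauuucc
miR-24-3p: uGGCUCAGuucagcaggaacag
miR-26a-5p: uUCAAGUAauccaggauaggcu
miR-30c-5p: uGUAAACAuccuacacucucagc
miR-103-3p: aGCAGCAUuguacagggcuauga
miR-107-3p: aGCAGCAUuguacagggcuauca
miR-497a-5p: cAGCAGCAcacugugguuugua
Per the file annotation on mm9, the probe of miR-29a-3p lies at chr6:31012716-31012734, that of miR-23a-3p at chr8:86732466-86732482, and 1 of the 2 positions of miR-24-3p beside it at chr8:86732778-86732795. By position in GRCm38.p6, on either strand, the genes of miR-26a-5p lie within Ctdspl and Ctdsp2, those of miR-103-3p within Pank3 and Pank2, that of miR-107-3p within Pank1, and 1 gene of miR-30c-5p within Nfyc.

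The last set from RefSeq is the epithelial miR-200 family with miR-205 and miR-203, of which all but miR-203-3p were high on the same array of each week. The seeds in capitals fall into a group of 3 miRNAs, a group of 2 and 2 single miRNAs.
miR-200b-3p: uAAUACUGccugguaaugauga
miR-200c-3p: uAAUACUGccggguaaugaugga
miR-429-3p: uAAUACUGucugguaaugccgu
miR-200a-3p: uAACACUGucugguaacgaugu
miR-141-3p: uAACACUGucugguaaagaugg
miR-205-5p: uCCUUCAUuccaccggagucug
miR-203-3p: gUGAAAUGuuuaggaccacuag
On mm9 the probes of miR-200b-3p (chr4:155429840-155429855), miR-200a-3p (chr4:155429063-155429079) and miR-429-3p (chr4:155428068-155428085) lie together, as do those of miR-200c-3p (chr6:124668392-124668406) and miR-141-3p (chr6:124667985-124668000).

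Week 18 replicate 1 stood apart from the other 5 arrays before any comparison. It had 316 miRNAs well above background, against 492 to 629 on the others, and 316 was also the lowest count of all 20 arrays (highest 742). Its 75th percentile signal was 183, against 884 to 1264 on the others, while its labelling spike-in, an RNA added in equal amount, read 3.46 on the log10 scale within a range of 3.38 to 3.46. The mean number detected was 599 ± 42.8 (SD, n = 3) at week 30 and 473 ± 148 (SD, n = 3) at week 18, and the exact 2-sided permutation test gave p = 0.2, where 3 arrays against 3 allow no p below 0.1. All 6 arrays lay on slide 2. The position of each week 18 chow array in its label differed from that in its file (3 of 3), against 0 of 3 at week 30. Read by the labels' positions, the file of week 18 replicate 1 would belong to a high fat mouse and that of week 18 high fat replicate 1 to a chow mouse. With these arrays exchanged, the count of called miRNAs given below stayed at 0.

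The late chow profile carried known artery markers, and some markers of other lineages were as bright. Levels are each array's signal scaled to a common 75th percentile, on the log2 scale, with a floor of 3.78 below which values have no order. The floor is the highest of the 6 arrays' dimmest detected signals, so a miRNA detected on an array can still lie at it. The smooth muscle miR-143-3p read 9.38, 10.33 and 10.997 at week 18 and 10.40, 10.43 and 10.62 at week 30. miR-145a-5p, from the same gene cluster, read 9.73, 8.45 and 9.16 at week 18 and 8.78, 8.81 and 8.81 at week 30. The week 30 arrays lay close together for both miRNAs and inside the range of the week 18 arrays. The endothelial miR-126a-3p, whose gene lies within Egfl7, read 9.41, 11.93 and 11.42 at week 18 and 11.89, 10.81 and 11.60 at week 30, and only week 18 replicate 1 was well below the rest. Of the other lineage markers, the striated muscle miR-133b-3p read 9.70 to 11.68 and the adipose miR-378a-3p 9.57 to 11.19 over the 6 arrays. The myeloid miR-223-3p read 6.87 to 7.70 at week 18 and 7.08 to 7.72 at week 30. miR-122-5p, which marks liver, was at the floor on 5 of the 6 arrays.

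The 20 miRNAs with the brightest signal over the 6 arrays, among the 264 detected on all of them, were miR-6366, miR-3963, miR-494-3p, let-7c-5p, miR-3473b, let-7a-5p, miR-5100, let-7b-5p, miR-29a-3p, miR-5126, miR-125b-5p, miR-3968, let-7f-5p, miR-1224-5p, miR-126a-3p, miR-451a, miR-26a-5p, miR-8110, miR-23a-3p and miR-24-3p. Probes differ in how strongly they bind, so this order is one of signal and not of amount. Of these miRNAs, miR-3963, miR-5100, miR-5126 and miR-1224-5p were also on the list of GC-rich or ribosomal RNA derived entries used below. Whether their signal came from the miRNAs of these names was not tested. The sets taken at each week shared 19 of 20, and 7 miRNAs were in the brightest 20 on every array: let-7a-5p, let-7b-5p, let-7c-5p, miR-125b-5p, miR-29a-3p, miR-3963 and miR-6366. Of the 20, 13 were in the brightest 20 of week 18 replicate 1, against 15 to 19 on the other arrays.

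**Figure D1:**
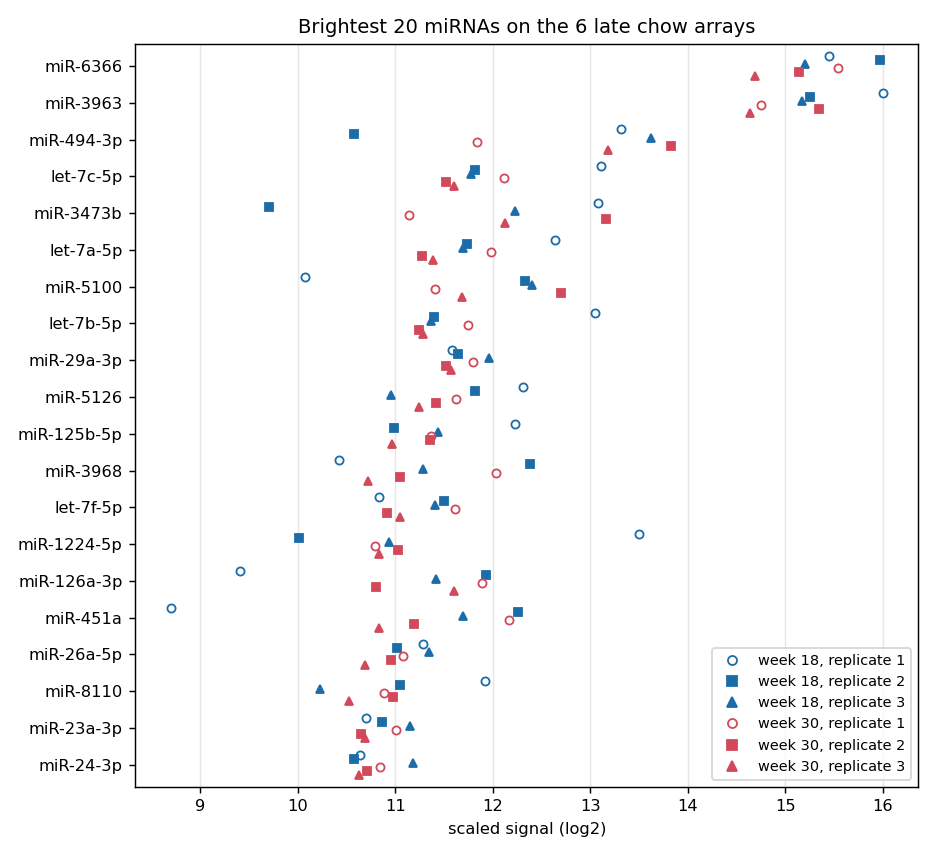
Scaled signal (log2, horizontal axis) of the brightest 20 miRNAs, 1 point per array, with week 18 in blue, week 30 in red and a symbol per replicate. The brightest miRNA, miR-6366, spans 14.69 to 15.97 and miR-23a-3p 10.65 to 11.15, while week 18 replicate 1 is far from the other arrays for let-7b-5p, miR-1224-5p, miR-126a-3p and miR-451a.

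Among the brightest, the evenly measured miRNAs were separate from the uneven ones. miR-29a-3p read 11.58, 11.64 and 11.96 at week 18 and 11.80, 11.52 and 11.57 at week 30. miR-23a-3p read 10.70, 10.87 and 11.15 at week 18 and 11.01, 10.65 and 10.69 at week 30. miR-24-3p, from the same cluster on chromosome 8, read 10.64, 10.58 and 11.18 at week 18 and 10.84, 10.71 and 10.63 at week 30. For these 3 miRNAs the weeks overlapped and all 6 arrays lay within 0.61 of each other. The red blood cell miRNA miR-451a was among the uneven ones, at 8.70, 12.26 and 11.70 at week 18 and 12.17, 11.19 and 10.83 at week 30. miR-494-3p, of the Dlk1-Dio3 cluster, read 13.31, 10.57 and 13.63 at week 18 and 11.84, 13.83 and 13.18 at week 30. For miR-494-3p the low arrays were week 18 replicate 2 and week 30 replicate 1, so its spread lay within the weeks and not between them.

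Pairs of arrays from different weeks could be as alike as replicates. Over the 264 miRNAs, the SD of the log2 differences between 2 arrays was 0.46 to 0.72 for the 3 week 30 pairs and 1.085 to 1.65 for the 3 week 18 pairs. Across weeks it ranged from 0.50 to 1.33 over 9 pairs. Week 18 replicate 3 and week 30 replicate 3 had an SD of 0.50, and week 18 replicate 2 and week 30 replicate 1 one of 0.56, both below every pair within week 18. Pairs with week 18 replicate 1 had SDs of 1.28 to 1.65, and pairs without it of 0.46 to 1.085. The median SD of a miRNA within its group was 1.01 at week 18 and 0.36 at week 30 (n = 3 each), and 0.42 at week 18 without replicate 1 (n = 2). The SD was larger at week 18 for 228 of 264 miRNAs, and for 159 without week 18 replicate 1.

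**Figure D2:**
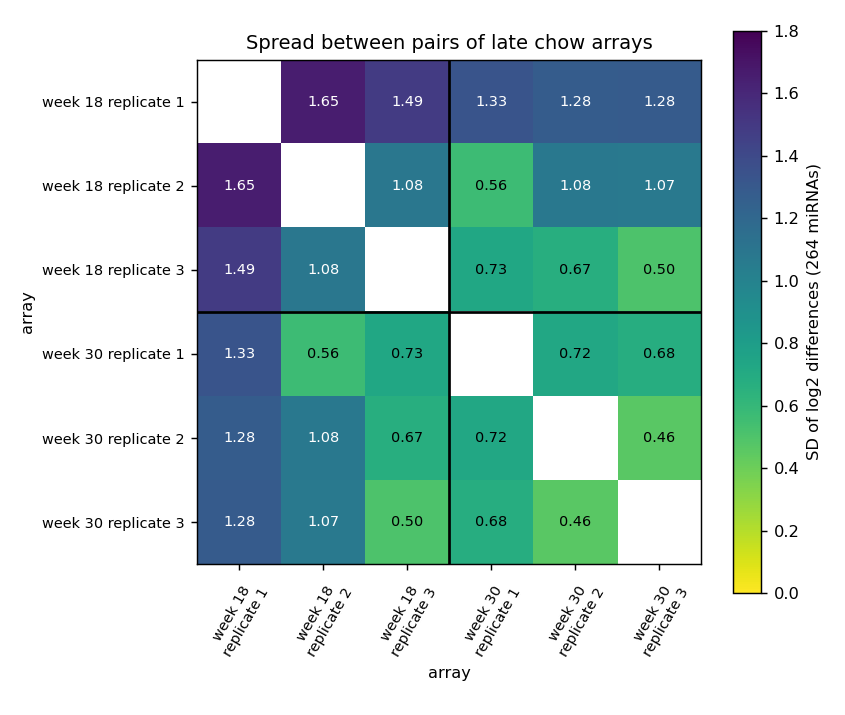
SD of the log2 differences over the 264 miRNAs detected on all 6 arrays, for each of the 15 pairs of arrays, with lines between the weeks. The first row and column, week 18 replicate 1, hold the values from 1.28 to 1.65, and the lowest value, 0.46, is between week 30 replicates 2 and 3.

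No miRNA passed the threshold between the weeks. In the limma fit over all 20 arrays, 0 of 609 miRNAs were called at an adjusted p under 0.05 (Benjamini-Hochberg), which is 0.0%, and the smallest adjusted p was 1.0. At an unadjusted p under 0.05 there were 4 (0.657%), with a smallest p of 0.0332. The count called was 0 under each of the 25 alternatives as well, where the smallest adjusted p was 0.0913, with arrays weighted by their quality. Over all tested miRNAs the median log2 difference, week 30 minus week 18, was 0.0, and it was 0.78 without scaling and -0.18 with all miRNAs in the scaling percentile. Over the 264 detected on all 6 arrays it was -0.15, with 91 higher and 173 lower at week 30, and 98.1% of these differences were smaller than 1 in size.

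A missing call does not show that levels were alike, so the 95% intervals were read instead. The interval lay wholly within a 2-fold difference either way for 130 of 609 miRNAs (21.3%), but 87 of these had at least 1 array at the floor. Of the 264 miRNAs detected on all 6 arrays, 35 (13.3%) were bounded in this way. The median SE of their 264 differences was 0.57, and the median distance from the difference to the end of its interval was 1.21, so most differences were not bounded within 2-fold. The 35 were chosen by this same fit, so they are a description. In a fit of only the 6 arrays, 27 of the 35 stayed bounded. Their number depended on the processing. Of the 264, 39 were bounded with quantile normalization, 25 of them among the 35. With the percentile taken over the 264 miRNAs, 31 were bounded, 30 of them among the 35. With the percentile over all miRNAs the number was 4, of which 2 were among the 35, and without scaling it was 0. Apart from scaling, it was 172 with normexp background correction and 147 with array weights.

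The bounded miRNAs covered a wide range of signal, from a mean of 4.24 to 11.68 on the log2 scale. Their differences ran from -0.31 for miR-145a-5p to 0.17 for miR-204-5p, with 5 higher and 30 lower at week 30 and a median of -0.10. The smallest SE among the bright ones was that of miR-23a-3p. Its difference was -0.12 ± 0.22 (SE of the pooled fit, n = 3 per week), with an interval from -0.60 to 0.35. miR-24-3p differed by -0.07 ± 0.27 and miR-29a-3p, the collagen repressor, by -0.10 ± 0.29. The list of miR-26, miR-23, miR-27 and miR-24, whose genes do not form 1 cluster, had 5 of 7 tested members in the set. These were miR-23a-3p, miR-23b-3p, miR-24-3p, miR-26a-5p and miR-27b-3p. Each of these 5 was lower at week 30 by 0.07 to 0.31 without passing the test, and each stayed lower without week 18 replicate 1. Lower was also the common direction, with 173 of the 264 miRNAs lower and a median of -0.15 over the 264. Such small signs depend on the scaling, since without it the median over all tested miRNAs was 0.78. Over the set of 35, 10 differences had the other sign without week 18 replicate 1. The 35 spanned a median of 0.78 over the 6 arrays, against 1.98 for the 264 miRNAs.

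**Figure D3:**
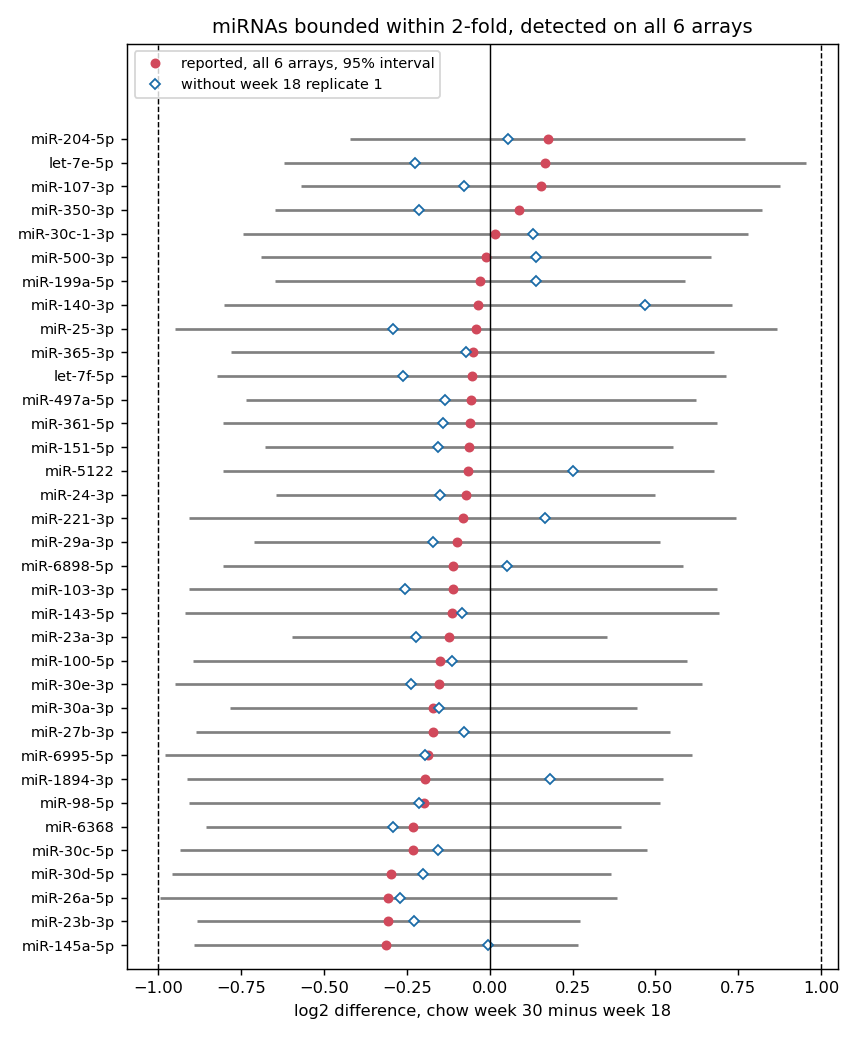
Log2 difference between week 30 and week 18 (horizontal axis) for the 35 miRNAs bounded within 2-fold, with the 95% interval as a line, and the value without week 18 replicate 1 as an open diamond. All intervals lie between the dashed lines at -1 and 1, and the diamond of miR-140-3p, at 0.47, is the farthest from its point, at -0.03.

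Members of a seed family could lie on opposite sides on week 18 replicate 1. In the let-7 family, 4 of the 9 tested members were highest and 4 lowest on that array among the 6. let-7a-5p read 12.64 there, against 11.28 to 11.99 on the others, and its difference between the weeks was -0.47 ± 0.40 (adjusted p = 1.0, limma). let-7g-5p read 8.76 there, against 10.14 to 10.64, and its difference was 0.45 ± 0.52. Without that array the differences were -0.16 and -0.15, so the relatives then had the same sign. let-7f-5p, which differs from let-7a-5p at 1 letter, read 10.83, 11.499 and 11.41 at week 18 and 11.61, 10.91 and 11.05 at week 30, and its difference of -0.05 ± 0.36 was bounded. Such a split was also seen for relatives of miR-15, where miR-15b-5p differed by -0.82 ± 0.96 and miR-15a-5p by 0.63 ± 0.79, and both were lower, by 0.22 and 0.21, without the array. The differences of miR-29b-3p (0.42 ± 0.78) and miR-29c-3p (0.36 ± 0.59) were -0.25 and -0.17 without it.

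Across miRNAs, the deviation of week 18 replicate 1 was related to base composition, though relatives of like composition could still lie on opposite sides. miR-15a-5p and miR-15b-5p, both with 40.9% GC, read 6.81 and 10.13 on this array, the lowest and the highest of the 6 arrays. Over the 222 of the 264 miRNAs with a printable mature sequence, the array's deviation from the mean of the other 5 had a Pearson r of 0.54 and a Spearman rho of 0.55 with the GC share of the miRNA, across miRNAs measured on the same arrays. Among the 81 miRNAs with 31.8% to 50% GC, its median deviation was -0.16 and 35 lay above 0. Among the 68 with 52.2% to 61.9% GC, the median was 1.40 and 61 lay above 0. Among the 73 with 62.5% to 100% GC, the median was 1.57 and 71 lay above 0, so the upper groups were nearly alike. For the difference between the weeks, r was -0.31 with the array and 0.31 without it, so the sign of that relation turned with 1 array. The part of base composition, or of the array's low signal, in any difference was not tested.

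The fixed lists gave no call. The 24 lists held 130 tested miRNAs, of which 0 were called against 0.0% of all tested, and their medians ran from -0.34 to 0.58 beside 0.0 for all tested. The median of 12 of the 24 lists had the other sign without week 18 replicate 1. In the artery wall, the smooth muscle list (3 tested) had 1 member higher and 2 lower at week 30, with a median of -0.11. The fibroblast list (5) had 3 higher and 2 lower, with a median of 0.22. The endothelial list (2) had both members higher, with a median of 0.49, which was -0.31 without week 18 replicate 1. The miR-29 family (4) had 2 in each direction and a median of 0.13, which was -0.17 without that array.

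The injury list (miR-21a-5p, miR-221-3p and miR-222-3p) had a median of -0.08, and 0.17 without week 18 replicate 1. miR-21a-5p read 9.13, 10.12 and 11.07 at week 18 and 10.20, 11.07 and 10.01 at week 30, so both weeks held an array at 11.07. Among leukocyte lists, the lymphocyte list (5) had 5 members lower, with a median of -0.25. Of these 5, 4 were highest on week 18 replicate 1, as were 164 of the 264 miRNAs detected on all 6 arrays. Without week 18 replicate 1, 1 of the 5 was higher and 4 lower, with a median of -0.05. The myeloid list (3) had 1 higher and 2 lower, with a median of -0.05, and -0.62 without that array. miR-150-5p, a lymphocyte miRNA, read 7.82, 6.70 and 7.21 at week 18 and 6.85, 5.94 and 6.40 at week 30, a difference of -0.85 ± 1.16. miR-155-5p, induced through NF-kB, read 5.31, 4.22 and 5.06 at week 18 and 4.58, 4.49 and 4.46 at week 30. The weeks overlapped for both. The NF-kB list (3) had a median of 0.0, and -0.13 without week 18 replicate 1.

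The lists of large families and clusters had no call either. The let-7 list (9) had 3 higher and 6 lower with a median of -0.20, the list of miR-10, miR-99, miR-100 and miR-125 (7) 2 and 5 with -0.19, and the miR-30 list (5) 3 and 2 with 0.19. Without week 18 replicate 1 these medians were -0.16, -0.09 and -0.21. The list of miR-26, miR-23, miR-27 and miR-24 (7) had 1 higher and 6 lower with a median of -0.17. The list of miR-15, miR-16 and miR-195 (6) had 4 higher and 2 lower with a median of 0.48, and -0.20 without week 18 replicate 1. The list of the miR-17 cluster and its paralogs (11) had 5 higher and 3 lower with a median of 0.0, which was -0.31 without that array, and the Dlk1-Dio3 list (13) 5 higher and 6 lower with a median of 0.0. The list of cholesterol regulators (3: miR-148a-3p, miR-148b-3p and miR-152-3p) had the highest median, 0.58. miR-148a-3p, a repressor of the LDL receptor message, read 5.81, 7.60 and 7.87 at week 18 and 7.69, 8.06 and 7.67 at week 30. Without week 18 replicate 1 that list's median was -0.05. The list of GC-rich or ribosomal RNA derived entries (11) had the lowest, -0.34, with 2 higher and 9 lower, and 0.11 without that array. On that array 9 of the 11 were highest, beside 164 of the 264 miRNAs detected on all 6 arrays.

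Markers of epithelium varied between single arrays of both weeks. The mean level of the 7 epithelial miRNAs was 3.78, 4.15 and 8.06 at week 18 and 4.15, 7.51 and 4.06 at week 30. miR-200b-3p read 7.82 on week 18 replicate 3 and 8.34 on week 30 replicate 2 and was at the floor on the other 4 arrays. miR-205-5p read 9.39 and 7.64 on these arrays and was at the floor on the other 4 as well. The other 4 members, apart from miR-203-3p, were high on these arrays too. miR-203-3p, known from skin, read 3.78, 6.39 and 9.84 at week 18 and 6.36, 5.29 and 5.76 at week 30, so it was high on week 18 replicate 3 but lowest of its week on week 30 replicate 2. Its difference was -0.86 ± 1.00, and -2.31 without week 18 replicate 1, where the weeks no longer overlapped and 0 miRNAs were called. On all 6 arrays the weeks overlapped for each of the 7, with 5 higher and 2 lower and a list median of 0.09, which was -0.51 without week 18 replicate 1. miR-34b-5p, of the p53 linked list (4, median 0.10, and -0.13 without week 18 replicate 1), was high on the same arrays, at 8.87 on week 18 replicate 3 and 9.99 on week 30 replicate 2, against 3.78 to 4.69 on the others. Without both arrays, an alternative chosen after the data were seen, 0 miRNAs were called and 12 of the 264 were bounded within 2-fold, against 35.

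Striated muscle miRNAs were highest on week 18 replicate 3. The mean of that list (5) was 6.62, 7.91 and 9.92 at week 18 and 8.05, 8.07 and 8.41 at week 30, with 2 higher and 3 lower and a median of -0.19, and -0.58 without week 18 replicate 1. miR-1a-3p, the main muscle miRNA of the list, read 6.76, 9.66 and 11.99 at week 18 and 9.75, 10.16 and 10.83 at week 30, so the week 30 arrays lay inside the week 18 range. The adipose list (6) had 1 higher and 5 lower, with a median of -0.32, and 0.08 without week 18 replicate 1. The red blood cell list (4) had 3 higher and 1 lower, with a median of 0.23, and -0.58 without that array. The liver list (3) and the single neuronal miRNA, miR-128-3p, had medians of 0.33 and 0.26, and of 0.06 and -0.11 without that array. Whether such tissues were in the samples, and their part in any difference, was not tested.

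**Figure D4:**
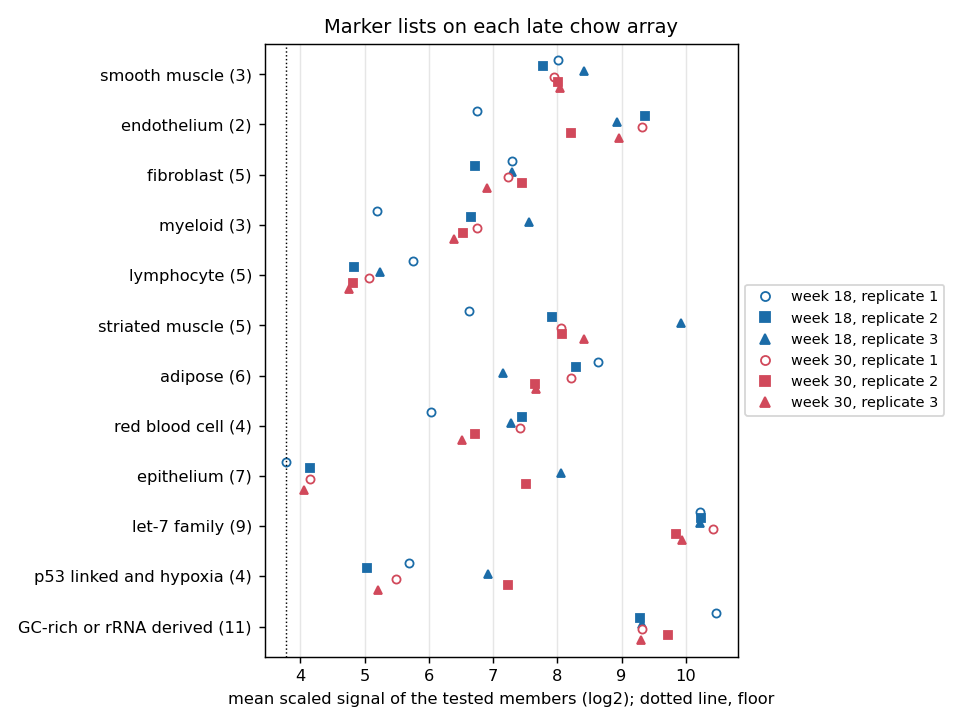
Mean scaled signal (log2) of the tested members of 12 lists on each array, with the number of members in parentheses, week 18 in blue, week 30 in red and the floor dotted. The mean of the epithelial miRNAs is high on 1 array of each week (8.06 and 7.51), smooth muscle miRNAs lie between 7.77 and 8.41, and week 18 replicate 1 is lowest for the endothelial list and highest for the GC-rich list.

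The 10 miRNAs higher at week 30 with the smallest p were miR-467e-3p, miR-7b-3p, miR-669a-3-3p, miR-669e-3p, miR-467c-3p, miR-7676-3p, miR-467g, miR-467b-3p, miR-764-5p and miR-669d-3p. None was called, and all 10 were at the floor on week 18 replicate 1. miR-467e-3p read 3.78, 4.74 and 3.89 at week 18 and 4.89, 6.20 and 5.19 at week 30. The weeks did not overlap, and its difference was 1.29 ± 0.55 (adjusted p = 1.0, limma). Without week 18 replicate 1 it was 1.11. miR-7b-3p read 3.78, 4.31 and 3.78 at week 18 and 4.90, 5.83 and 4.18 at week 30, so the weeks overlapped, with a difference of 1.02 ± 0.45. Over all tested miRNAs, the week 30 arrays all lay above the week 18 arrays for 16 (2.63%) and all below for 1 (0.164%).

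miRNAs named miR-467 or miR-669 made up 7 of these 10. Most such names belong to the Sfmbt2 cluster, a large repeat-rich group of miRNAs in an intron of that gene. miR-467g is an exception, since its gene lies on chromosome 5 within Grk4 by position in GRCm38.p6, and the file annotation leaves its probe and that of miR-669a-3-3p unmapped. Their probes are printed from the array annotation because they share the stretch in capitals, which 18 of the 609 tested miRNAs have in a probe.
miR-467e-3p probe: atataggtGTGTGTATgtata
miR-467c-3p probe: gtataggtGTGTGTATgtata
miR-467g probe: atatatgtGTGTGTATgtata
miR-669d-3p probe: gtatatggGTGTGTATgtata
miR-669e-3p probe: gtgtaagtGTGTGTATattc
miR-467b-3p probe: gtgttggtGTGTGTAT
miR-669a-3-3p probe: atacatgtGTGTGTATgttatg
The probes of miR-467e-3p and miR-467c-3p differ at 1 of 21 letters, so their values are not independent measurements and each is uncertain as the level of its own miRNA. On mm9 the first lies at chr2:10427397-10427416 and the other at chr2:10395606-10395625.

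Such names were looked at as a group after their values were seen, and not every name need lie in the cluster. All 42 tested miRNAs named miR-297, miR-466, miR-467 or miR-669 gave 38 higher and 1 lower at week 30, with a median of 0.82, and 29 higher with a median of 0.74 without week 18 replicate 1. The median was 0.54 to 1.40 under the other scalings and the lower floor, but 0.0 with normexp background correction, with 12 higher and 7 lower. The median of all tested miRNAs was 0.0 beside 0.82. On week 18 replicate 1, 11 of the 42 were well above background, against 37 to 42 on the others. A miRNA was tested if any group had it detected throughout, so most of the 42 could not enter through chow week 18. Entry through chow week 30 can favour higher values there, so the split of 38 to 1 is only a description. Their mean level was 4.84, 5.99 and 5.33 at week 18 and 6.08, 6.70 and 5.63 at week 30, so week 18 replicate 2 lay above week 30 replicate 3. 0 of the 42 were called.

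The 10 miRNAs lower at week 30 with the smallest p were miR-450a-2-3p, miR-486a-5p, miR-149-5p, miR-148b-3p, miR-210-3p, miR-7043-5p, miR-139-5p, miR-5132-5p, miR-3963 and miR-466i-5p. miR-486a-5p, a red blood cell miRNA, read 7.88, 6.09 and 6.56 at week 18 and 6.05, 5.62 and 5.54 at week 30, the weeks not overlapping. Its difference was -1.11 ± 0.58 (adjusted p = 1.0, limma), and -0.59 without week 18 replicate 1. miR-210-3p, the miRNA best known for its induction by hypoxia, read 6.81, 5.53 and 6.81 at week 18 and 6.14, 5.71 and 5.65 at week 30, a difference of -0.55 ± 0.36. miR-7043-5p and miR-5132-5p were above the floor on week 18 replicate 1 alone, so their differences of -0.65 and -0.82 were 0.0 without it. Over all tested miRNAs, 53 were higher at week 30 by more than 1 on the log2 scale and 1 was lower, against 25 and 3 without that array. Of the 53, 48 were not well above background on it.

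**Figure D5:**
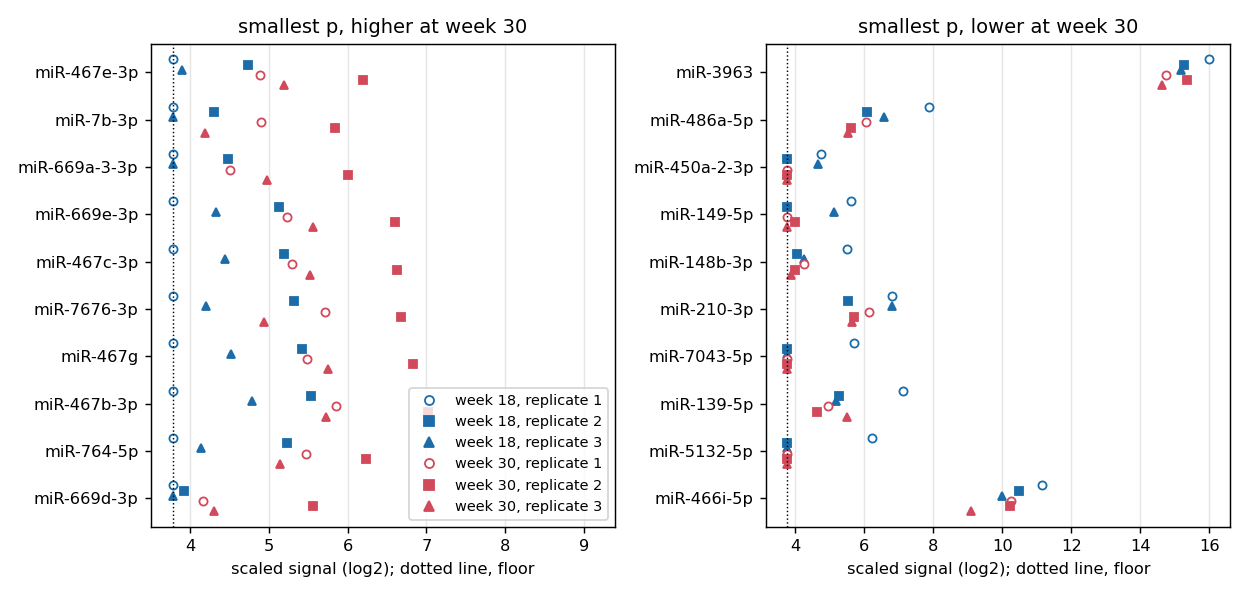
Scaled signal (log2) per array of the 10 higher (left) and the 10 lower (right) miRNAs with the smallest p, week 18 in blue, week 30 in red and the floor dotted. On the left, week 18 replicate 1 is at the floor of 3.78 for all 10 and week 30 replicate 2 is highest, at 6.20 for miR-467e-3p.

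Detection at week 18 lay within detection at week 30. All 264 miRNAs detected on the 3 week 18 arrays were also detected on the 3 week 30 arrays (100%), and these were 51.7% of the 511 detected on all week 30 arrays. Another 212 were detected on all 3 week 30 arrays and on 2 of 3 at week 18, and for 166 of them the missing array was week 18 replicate 1. 3 miRNAs were detected on all week 30 arrays and on none at week 18, and 0 the other way. These were the liver miRNA miR-122-5p, miR-6998-3p and miR-669l-3p. miR-122-5p read 6.00 and miR-6998-3p 5.14 on week 30 replicate 2, and both were at the floor on the other 5 arrays. miR-669l-3p read 5.18 on week 30 replicate 2 and 3.96 on week 30 replicate 3, with the other 4 arrays at the floor. Each had an adjusted p of 1.0 (limma), and no fold is given because week 18 lay wholly at the floor and the week 30 level rested mainly on 1 array.

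The chow step was also set against the same step on the high fat diet. 0 of 609 miRNAs were called for the difference of the steps (0.0%), with 28 at an unadjusted p under 0.05 and a smallest adjusted p of 0.625 (limma). With the slide as a block, 2 were called, and with array weights 58. Arrays of the series treated as near-identical counted as separate replicates in the main fit, so its SEs may be too small. With such arrays averaged, 0 miRNAs were called for the difference of the steps. Of the week 18 high fat arrays 2 of 3 lay on slide 2 and of the week 30 high fat arrays 0, so the high fat step crosses slides and the chow step does not. miR-204-5p was bounded in chow, at 0.17 ± 0.28, and its high fat difference was -1.03 ± 0.28, a difference of the steps of 1.20 ± 0.40 (adjusted p = 0.625). For miR-467e-3p the chow difference was 1.29 ± 0.55 and the high fat one -0.71 ± 0.55, a difference of 2.001 ± 0.781 (adjusted p = 0.625). miR-350-3p was at 0.09 ± 0.35 in chow and -1.11 ± 0.35 in high fat.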

How the data were processed

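The deposited files hold linear spot intensity. The submitters' processing notes name Agilent Feature Extraction 11.5.1 as its source. Per the file headers it was background-subtracted and detrended within each array and left unscaled across arrays. The deposited value table repeats this intensity. Probe positions are on mm9 per the file headers. Control spots (2164) and outlier spots (1540 to 2287 on the 6 arrays) were left out, and the other spots were averaged per probe and then per miRNA (1881 miRNAs). Detection required that a share of 0.5 or more of a probe's remaining spots be well above background, for any probe of the miRNA. For scaling, the 75th percentile of the 192 miRNAs found on all 20 arrays was set equal across arrays. A common floor followed, and then log2 of the deposited intensity.

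A miRNA was tested if any group had it detected throughout (609 miRNAs). The test was limma 3.58.1 in R 4.3.3, with lmFit and eBayes fitted to 20 arrays in 7 groups, 2-sided, with Benjamini-Hochberg adjustment at 0.05. The fit was tested on simulated normal values with 1 spread per miRNA, no floor and no array of low signal. That test therefore does not cover these features of the arrays. The named miRNAs are the 20 brightest, the 10 per direction with the smallest p where none passed the threshold, up to 4 per list, the 10 brightest bounded ones, those detected at 1 week only, and 5 by the difference of the steps. The miRNAs and lists were chosen with earlier results of these data known.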

Additional observations from a re-analysis of the deposited data

How the results depend on the processing

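The count of called miRNAs, 0, was the same under all 25 alternatives, and 0 of 2903 values of the 120 named miRNAs passed the threshold. Of those values, 295 had the other sign than the reported one, 61 of them without scaling, 47 without week 18 replicate 1 and 43 with array weights, and 22 of the 120 miRNAs kept 1 sign throughout. Without scaling the median difference over all tested miRNAs was 0.78.

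The number bounded within 2-fold depended on the settings. Over all tested miRNAs (130) it was 509 with normexp background, 6 without scaling, 38 with the floor lower by 1, 1377 without a filter, 19 and 17 with only the miRNAs detected on all 20 or all 6 arrays, 313 with array weights and 75 without both arrays high in epithelial miRNAs. Leaving out 1 array gave 88 to 140. Among the miRNAs detected on all 6 arrays (35) it was 172 with normexp background, 4 with all miRNAs in the scaling percentile, 0 when unscaled, 17 with the lower floor, 19 and 17 with the stricter filters, 147 with array weights and 12 without both arrays high in epithelial miRNAs. Leaving out 1 array gave 16 (without week 30 replicate 1) to 42 (without week 18 replicate 1). Of those 42, 23 were among the 35. The number bounded was 18 without week 18 replicate 2, 21 without week 18 replicate 3 and 20 without week 30 replicate 2. With near-identical arrays of the series averaged it was 29, and 116 over all tested miRNAs. The median SD between pairs of arrays, 1.07, was 0.62 with normexp background and 0.70 to 1.08 with 1 array left out. The difference of the steps had 2 calls with the slide as a block and 58 with array weights. The causes were not tested.

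With the replicate number as a block in a fit of the 6 arrays, 0 miRNAs were called, 41 had an unadjusted p under 0.05, and 106 were bounded, 22 of them detected on all 6 arrays. The deviations of same-numbered arrays correlated at -0.27, -0.11 and -0.07, so the numbers gave no sign of pairing.

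Signal limits the comparison most on week 18 replicate 1, where 192 of the 609 tested miRNAs were at the floor, against 65 to 157 on the other arrays. With 3 arrays per week, a 2-fold difference lay inside most intervals.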
